A study of Homo sapiens with 15 samples.

Results

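The 8 genes described here are RAX, SIX3, SIX6, LHX2, PAX6, OTX2, HESX1 and DCT. The first 7 encode transcription factors of the eye field and the anterior neural plate, and DCT encodes dopachrome tautomerase, a melanin-synthesis enzyme of pigment cells. They were found by matching the Ensembl identifier of each row of the deposited count and FPKM tables to these symbols. All 8 were among the 60675 genes listed, and all 8 were among the 19012 genes that passed the filter on low counts and were tested. They were read in 15 RNA-seq libraries of H9, an established human embryonic stem cell line of wild-type genotype, collected on day 7 of a protocol for the osteogenic lineage. Every group passed through the same serum medium and, from day 5, the same addition of vitamin D3, β-glycerophosphate and ascorbic acid. UNT was the vehicle control with 0.1% DMSO. FPM_IC25 and FPM_IC50 were exposed to FPM, fine particulate matter, from day 0, at 0.00062 µg/mL (IC25) and 1.4 µg/mL (IC50). SRM_IC25 and SRM_IC50 were exposed to SRM, a reference material from NIST, over the same days, at 0.003 µg/mL (IC25) and 5.9 µg/mL (IC50). IC25 and IC50 are inhibitory concentrations that, per the labels, were set for each particle on a protein basis. Each of the 5 groups held 3 libraries. The labels do not say that these came from separate cultures, so the p-values reflect the spread among these libraries alone, and that spread may be technical. All libraries come from 1 cell line.

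The eye field is the patch of the anterior neural plate from which both retinas arise. RAX, SIX3, SIX6, LHX2 and PAX6 are expressed there together and maintain one another's expression, while OTX2 covers the whole forebrain and midbrain territory and prepares it for eye field formation. HESX1 is a repressor of the anterior neural plate and pituitary placode. OTX2 and HESX1 are also active in pluripotent and early epiblast cells. DCT is an early marker of the pigment lineages and is also switched on in the presumptive retinal pigment epithelium. Cultures of pluripotent cells left to differentiate without patterning signals commonly contain some anterior neural cells.

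The total count per library ranged from 9.34 to 58.2 M (mega). Genes annotated as antisense took 0.942 to 1.5% of counts in the 6 FPM libraries and 0.274 to 0.319% in the other libraries. Of 7 osteoblast-lineage markers, IBSP and BGLAP, which mark mature bone-forming cells, were too low to test. Their highest values in any library were 3 counts and 0.061 CPM for IBSP, and 13 counts and 0.543 CPM for BGLAP. The sum of the 7 was 654 to 746 CPM in UNT and 935 to 1048 CPM at SRM_IC50. CPM are counts scaled to a common library size by the TMM method. A floor of 3 counts was worth 0.0504 to 0.309 CPM, depending on the library, and it covers counting error only, since reads were copied by PCR and carry no molecular identifiers.

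Sequence upstream of the start is shown for RAX, the eye field gene that fell most, for HESX1, the only member that rose, and for DCT, which fell most of all. The sequences are RefSeq windows of GRCh38.p14 on the strand of the gene, 5′ to 3′, ending just before the annotated start except where bases inside exons were left out. Capitals mark matches, on either strand, to 4 short motifs: TAATTA, a homeodomain core that reads the same on both strands, TAATCC, the core preferred by OTX2-type homeodomains, ACAATG, a SOX core, and CATGTG, the core of the M-box bound by MITF.

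RAX, chr18:59273455-59273704, minus strand: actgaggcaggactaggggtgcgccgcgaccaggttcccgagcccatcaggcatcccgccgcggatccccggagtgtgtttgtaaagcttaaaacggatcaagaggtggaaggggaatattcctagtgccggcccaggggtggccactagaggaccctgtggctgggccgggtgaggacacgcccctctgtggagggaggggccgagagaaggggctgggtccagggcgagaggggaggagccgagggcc
HESX1, second listed start, chr3:57200029-57200228, minus strand: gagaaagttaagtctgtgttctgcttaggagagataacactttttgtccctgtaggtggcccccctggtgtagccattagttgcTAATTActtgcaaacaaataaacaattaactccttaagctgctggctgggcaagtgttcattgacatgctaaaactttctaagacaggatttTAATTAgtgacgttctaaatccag
DCT, second listed start, chr13:94479683-94479932, minus strand: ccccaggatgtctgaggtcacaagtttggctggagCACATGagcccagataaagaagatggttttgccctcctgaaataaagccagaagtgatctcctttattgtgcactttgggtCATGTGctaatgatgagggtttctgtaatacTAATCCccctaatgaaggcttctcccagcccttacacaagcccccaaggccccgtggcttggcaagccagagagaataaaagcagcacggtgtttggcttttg

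The RAX window, with 66.4% GC, held none of the 4 motifs. The HESX1 window held TAATTA at -166 and -74 from the RefSeq start, and 4.35% of the 35116 windows of 250 bases in the table hold that motif. The DCT window held CATGTG at -215 and -134 and TAATCC at -103, motifs present in 9.42% and 5.62% of all windows. Both of these genes have another listed start that is not shown. The windows of those first listed starts, with 79.2% GC for HESX1 and 56.4% GC for DCT, held none of the 4 motifs. ACAATG, present in 9.29% of windows, matched in none of the members' windows searched. A match describes the letters of a window and nothing more. Elsewhere CATGTG matched once in a window of OTX2 (-239) and once in 1 of the 9 listed starts of PAX6 (-97). The windows of SIX6 and LHX2 were only 55 and 92 bases long once exon bases were removed, and held no match.

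The 5 eye field transcription factors and DCT fell together at SRM_IC50 and, more variably, at FPM_IC25. At SRM_IC50 against UNT, 6 of the 8 genes were lower and 1 (HESX1) was higher at an adjusted p under 0.05. The falls ranged from 2.4-fold for SIX3 and PAX6 to 12.9-fold for DCT. At FPM_IC25 against UNT, 7 were lower and none higher. No member passed the test at FPM_IC50 or at SRM_IC25. Over all genes tested, 9.59% were lower and 7.96% higher at SRM_IC50, and 3.51% were lower and 10.7% higher at FPM_IC25. The exposed libraries lay wholly below UNT for the same 6 and 7 members, which 15.6% of all genes did at SRM_IC50 and 13.4% at FPM_IC25. The median log2 fold change of the 8 genes was -1.44 at SRM_IC50 (0 over all genes tested) and -1.22 at FPM_IC25 (-0.0018 over all genes). These and all adjusted p-values below are from edgeR's quasi-likelihood test with Benjamini-Hochberg adjustment over all genes tested, unless another tool is named. In these bulk samples, fewer cells of a type and less RNA per cell cannot be told apart.

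**Figure D1:**
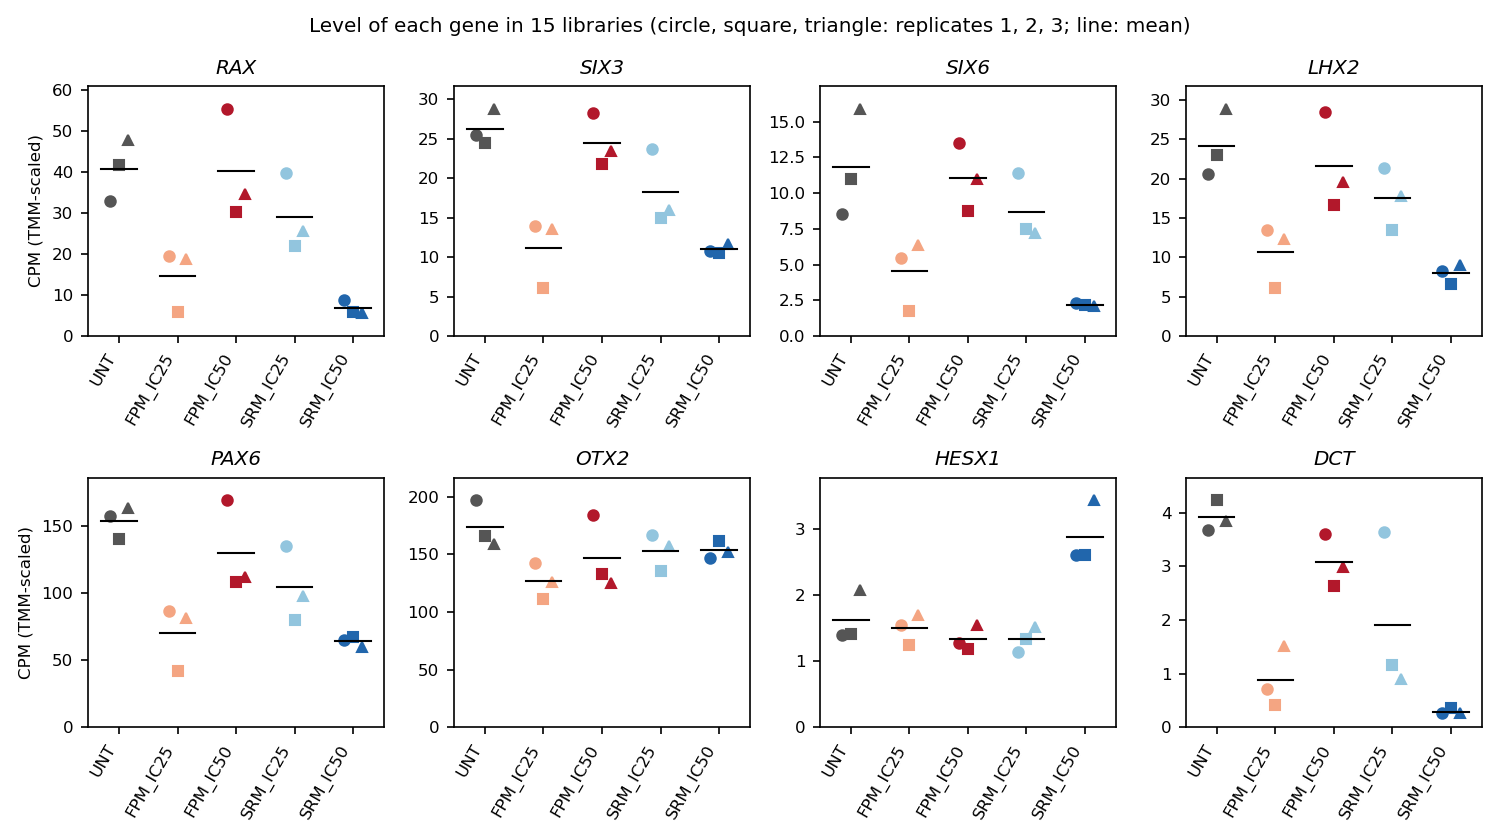
Level of each of the 8 genes in all 15 libraries, in TMM-scaled CPM on a linear axis that starts at 0 (circles, squares and triangles are replicates 1, 2 and 3, and lines are group means). The 3 SRM_IC50 libraries lie below every UNT library for RAX, SIX3, SIX6, LHX2, PAX6 and DCT, and above them for HESX1; for OTX2, 1 lies within the UNT range and 2 below it.

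RAX (ENSG00000134438, GRCh38 chromosome 18, 59267035 to 59274086, minus strand) encodes the retinal homeobox factor that defines the eye field. It stood at 33.0, 41.6 and 47.7 CPM in the UNT libraries and at 8.85, 5.85 and 5.63 CPM at SRM_IC50. At FPM_IC25 it stood at 19.4, 5.94 and 18.7 CPM. Both sets lie wholly below UNT. At SRM_IC50 that is a 5.85-fold fall, with a log2 fold change of -2.55 ± 0.373 (SE) and an adjusted p of 0.000131. At FPM_IC25 the change was -1.48 ± 0.348 (adjusted p = 0.00672). FPM_IC50, at 55.4, 30.2 and 34.7 CPM, spanned the UNT range, with a log2 difference of -0.03 (SE 0.336). SRM_IC25, at 39.7, 21.9 and 25.6 CPM, overlapped UNT in 1 library. RAX has no annotated gene on the opposite strand within 5 kb.

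SIX6 (ENSG00000184302, chromosome 14, 60508951 to 60512850, plus strand) encodes a homeodomain factor that keeps retinal progenitors dividing. Its levels were 8.56, 11 and 15.9 CPM in UNT, 2.31, 2.14 and 2.11 CPM at SRM_IC50 and 5.45, 1.72 and 6.39 CPM at FPM_IC25. Again neither exposed group overlapped UNT. The log2 fold change was -2.42 (SE 0.377, adjusted p = 0.000237) at SRM_IC50 and -1.36 (SE 0.341, adjusted p = 0.011) at FPM_IC25. The second of these calls was lost without UNT replicate 3, the highest library (-1.07, adjusted p = 0.0661), and when only the groups compared were fitted (adjusted p = 0.051). FPM_IC50 (13.5, 8.72 and 11 CPM) and SRM_IC25 (11.4, 7.49 and 7.17 CPM) overlapped UNT.

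SIX3 (ENSG00000138083, chromosome 2, 44941898 to 44946077, plus strand) is the close relative of SIX6 that represses WNT signals in the forebrain. It was tightly grouped in UNT, at 25.5, 24.4 and 28.8 CPM, and at SRM_IC50, at 10.8, 10.5 and 11.6 CPM. The 3 FPM_IC25 libraries were wider apart, at 13.9, 6.08 and 13.5 CPM. SIX3 was thus at a similar level in both exposed groups, whose log2 fold changes were -1.26 (SE 0.235, adjusted p = 0.00112) at SRM_IC50 and -1.24 (SE 0.234, adjusted p = 0.001) at FPM_IC25. SRM_IC25, at 23.7, 15.0 and 16.0 CPM, lay wholly below UNT, but its log2 difference of -0.54 (SE 0.227) did not pass (adjusted p = 0.169). FPM_IC50 stood at 28.2, 21.8 and 23.4 CPM, within and just below the UNT range.

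LHX2 (ENSG00000106689, chromosome 9, 124001670 to 124033301, plus strand), a LIM homeodomain factor needed to turn the eye field into an optic cup, showed the same order of groups. UNT libraries held 20.6, 23.0 and 28.9 CPM, SRM_IC50 libraries 8.27, 6.62 and 9.06 CPM, and FPM_IC25 libraries 13.5, 6.13 and 12.3 CPM. The log2 change was -1.61 ± 0.267 (SE) at SRM_IC50 (adjusted p = 0.000424) and -1.20 ± 0.259 at FPM_IC25 (adjusted p = 0.00338). FPM_IC50 (28.5, 16.7 and 19.6 CPM) and SRM_IC25 (21.4, 13.5 and 17.8 CPM) each had 1 library inside the UNT range.

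PAX6 (ENSG00000007372, chromosome 11, 31784779 to 31818062, minus strand), the paired-box regulator of eye, forebrain and neural tube, was at 157, 140 and 163 CPM in UNT. SRM_IC50 libraries held 65.0, 67.2 and 59.7 CPM and FPM_IC25 libraries 86.5, 42.3 and 81.3 CPM, all below UNT. Its log2 fold changes matched those of SIX3 closely, at -1.26 (SE 0.236, adjusted p = 0.00117) for SRM_IC50 and -1.14 (SE 0.235, adjusted p = 0.00239) for FPM_IC25. FPM_IC50 was at 169, 108 and 112 CPM, with 1 library above and 2 below the UNT range. SRM_IC25, at 135, 79.9 and 98.0 CPM, lay below UNT without passing the test (-0.56, SE 0.232, adjusted p = 0.164).

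DCT (ENSG00000080166, chromosome 13, 94436808 to 94479682, minus strand) had the largest fall of the 8. UNT libraries held 3.68, 4.23 and 3.84 CPM and SRM_IC50 libraries 0.271, 0.356 and 0.264 CPM. These last values rest on 18 counts over the 3 libraries, and replicate 3, with 3 counts, was at its floor. The log2 change was -3.69 ± 0.539 (SE), with an adjusted p of 0.000128. At FPM_IC25 the levels were 0.720, 0.418 and 1.51 CPM, and the log2 change was -1.93 ± 0.423 (adjusted p = 0.00382). SRM_IC25 was split, with replicate 1 at 3.63 CPM beside UNT and replicates 2 and 3 at 1.17 and 0.904 CPM. Its log2 difference from UNT was -1.17 (SE 0.41, adjusted p = 0.105), and it passed the test without replicate 1 (-1.86, adjusted p = 0.0315). FPM_IC50, at 3.60, 2.63 and 2.99 CPM, lay just below UNT (-0.37, adjusted p = 0.637). Like RAX, DCT has no annotated opposite-strand gene within 5 kb.

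OTX2 (ENSG00000165588, chromosome 14, 56799905 to 56810479, minus strand), which marks forebrain and midbrain more widely, did not follow the eye field genes. It was at 197, 166 and 159 CPM in UNT and at 147, 162 and 152 CPM at SRM_IC50, groups that overlap in 1 SRM_IC50 library, with a log2 difference of -0.18 (SE 0.137, adjusted p = 0.443). FPM_IC25 libraries held 143, 111 and 126 CPM, all below UNT. The log2 change there was -0.46 ± 0.138 (SE), with an adjusted p of 0.0338. This call was lost in all 3 limma fits on FPKM (-0.37, adjusted p = 0.164 to 0.299), with a GC correction (adjusted p = 0.0983), and without UNT replicate 1 (0.109), UNT replicate 2 (0.064), FPM_IC25 replicate 2 (0.161) or FPM_IC25 replicate 3 (0.0871). FPM_IC50 (184, 133 and 125 CPM) and SRM_IC25 (167, 136 and 157 CPM) overlapped UNT. In the joint test over the 5 groups, OTX2 was the 1 member that did not pass (adjusted p = 0.116), where 40.8% of all genes passed.

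HESX1 (ENSG00000163666, chromosome 3, 57197838 to 57227606, minus strand) was the least abundant of the transcription factors in UNT and the only member to rise. It was at 1.39, 1.41 and 2.07 CPM in UNT and at 2.61, 2.60 and 3.43 CPM at SRM_IC50. The groups did not overlap, and HESX1 gained 0.80 ± 0.217 (SE) on the log2 scale, with an adjusted p of 0.0159. The call was lost when any of 3 libraries was left out, with adjusted p-values of 0.0699 (UNT replicate 1), 0.0723 (UNT replicate 2) and 0.053 (SRM_IC50 replicate 3). It was also lost with no filter on low counts (0.0522) and when only the groups compared were fitted (0.0592). In the remaining groups HESX1 stood between 1.14 and 1.70 CPM in every library. The pluripotent-cell markers POU5F1, NANOG, PRDM14, TDGF1 and LIN28A summed to 1148 to 1265 CPM in UNT and to 1731 to 2141 CPM at SRM_IC50, with 4 of the 5 higher. Their part in the HESX1 result was not tested.

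**Figure D2:**
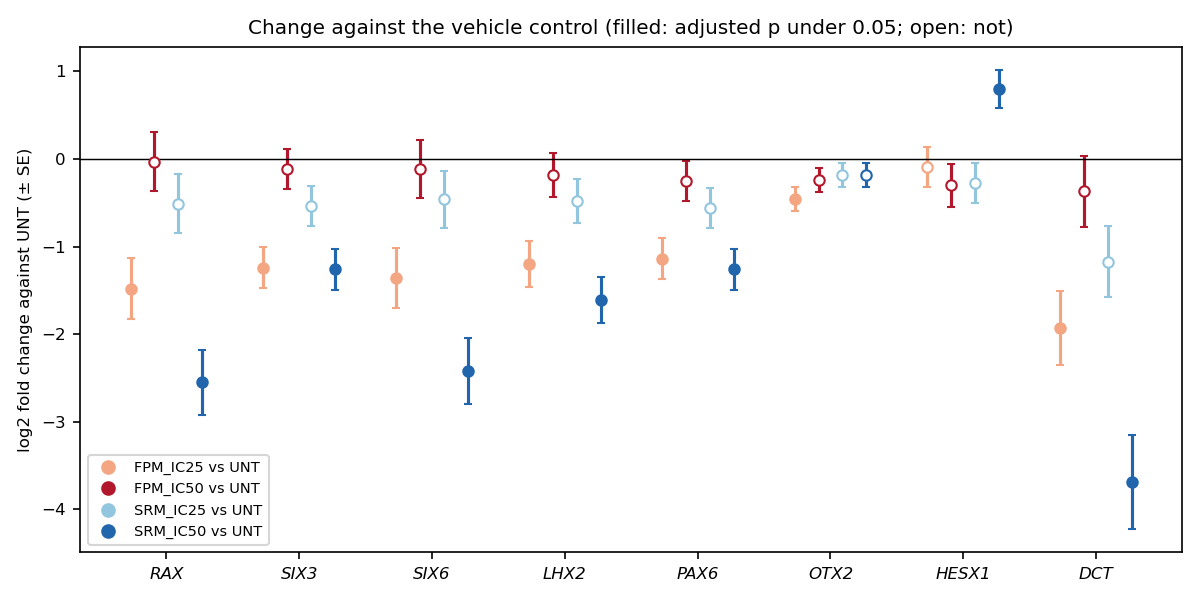
Log2 fold change of each gene against UNT in the 4 exposed groups, with a standard error derived from the F statistic (3 libraries a group). Filled points have an adjusted p under 0.05, open points do not. The filled points lie at FPM_IC25 and SRM_IC50 only, and all but the SRM_IC50 point of HESX1 at 0.80 are below 0.

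The lower concentrations and the particles were then set against each other. From SRM_IC25 to SRM_IC50, 6 members fell and HESX1 rose, where 13.2% of all genes fell and 13.7% rose. RAX dropped by 2.04, SIX6 by 1.96 and DCT by 2.52 on the log2 scale, LHX2 by 1.13, SIX3 by 0.72 and PAX6 by 0.70, while HESX1 gained 1.08 (adjusted p = 0.00149). The calls of SIX3 (adjusted p = 0.034) and PAX6 (adjusted p = 0.0373) were the weakest. Both were lost in all 3 limma fits on FPKM (adjusted p = 0.073 to 0.17 for SIX3 and 0.0978 to 0.221 for PAX6), and DCT in the limma fit with no filter (0.161). SIX3 was also lost with a GC correction (-0.61, adjusted p = 0.0905) and without SRM_IC25 replicate 1 (0.145) or SRM_IC50 replicate 1 (0.0835) or 2 (0.098). PAX6 was also lost without SRM_IC25 replicate 1 (0.171) or 3 (0.0589), or SRM_IC50 replicate 1 (0.076), 2 (0.0743) or 3 (0.076).

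FPM ran the other way. The libraries of FPM_IC50 all lay above those of FPM_IC25 for RAX, SIX3, SIX6, LHX2, PAX6 and DCT, a separation in that direction seen in 4.56% of all genes. The log2 differences were 1.45 for RAX, 1.13 for SIX3, 1.25 for SIX6, 1.02 for LHX2, 0.89 for PAX6 and 1.56 for DCT. By edgeR no member passed (smallest adjusted p = 0.185, SIX3), with 6 at an unadjusted p under 0.05 (4.12% of all genes), and 0.0105% of all genes passed in either direction. DESeq2 called 1 member, SIX3 (1.13, adjusted p = 0.00622), among 37 of all 19012 genes, and limma none. EdgeR with no filter on low counts called 6 members, and 116 of the 40668 genes it tested. However, that fit set each gene's spread to the common trend (infinite prior degrees of freedom, against 5.64 for these genes with the filter). The SE of RAX went from 0.352 to 0.132. The calls of that fit therefore do not rest on each gene's own spread between libraries.

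The step from IC25 to IC50 was itself compared between the particles. The difference of the steps, FPM minus SRM, passed for 7 of 8 members, in a test that 14.6% of all genes passed. It was largest for DCT (4.08, SE 0.732, adjusted p = 0.00136) and RAX (3.49, SE 0.513, adjusted p = 0.000239). SIX6 had 3.21, LHX2 2.15, SIX3 1.85, PAX6 1.59 and HESX1 -1.29 on the log2 scale. The HESX1 call was lost without FPM_IC25 replicate 3 (adjusted p = 0.0595). OTX2 had 0.22 (adjusted p = 0.533).

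Between particles at the same inhibitory level, doses differ, so values are given as a contrast of these groups and not of matched doses. FPM_IC50 was above SRM_IC50 for 6 members (23.2% of all genes), from a log2 difference of 1.01 for PAX6 to 3.32 for DCT, and below it for HESX1 (-1.10, adjusted p = 0.00125), as 16.2% of all genes were. FPM_IC25 against SRM_IC25 gave no call in edgeR (smallest adjusted p = 0.0824, SIX3), with 5 members at an unadjusted p under 0.05 (19.5% of all genes) and 10.5% of all genes called. DESeq2 called SIX3 (-0.70, adjusted p = 0.0448), limma called none and edgeR with no count filter, with the spread set to the trend, called 5, all lower. Over all genes DESeq2 called 2133 of 19012, and edgeR with no count filter 2917 of 40668. Without FPM_IC25 replicate 3, the deepest library, SIX3 (-0.93) and SIX6 (-1.42) passed.

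Against UNT, the comparisons with no member called had counts of 0 at different strengths. At SRM_IC25, 3 members (SIX3, PAX6 and DCT) had an unadjusted p under 0.05 (22.4% of all genes), and the same 3 lay wholly below UNT, which 14.3% of all genes did. EdgeR called 4.37% of all genes (831), a number that ran from 0 with a GC correction or only the groups compared to 2718 with a replicate block. Log2 CPM centred on each gene's mean correlated with GC content (Spearman) at -0.38 to -0.13 in UNT and 0.20 to 0.41 at SRM_IC25. At FPM_IC50 no member had an unadjusted p under 0.05 (24.1% of all genes), in a comparison where 13.6% of all genes were called. DESeq2 and limma also called none in either comparison, while edgeR with no filter on low counts, with the spread again set to the trend, called 5 members at SRM_IC25, all lower, and none at FPM_IC50. That fit called 791 of 40668 genes at SRM_IC25 and 3456 at FPM_IC50. Without FPM_IC50 replicate 1, OTX2 passed at FPM_IC50 (-0.43, adjusted p = 0.032). The comparisons with UNT share its 3 libraries.

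Within some groups most members had their lowest or highest value in the same library. The share of all genes that did so was not computed, so this cannot be called particular to the members. FPM_IC25 replicate 2 was the lowest library of its group for all 8 genes, by 3.27-fold from highest to lowest for RAX, 3.72-fold for SIX6 and 1.29-fold for OTX2. FPM_IC50 replicate 1 was the highest of its group for 7 of the 8, and SRM_IC25 replicate 1 the highest for 7. SRM_IC50 had no such library, since its highest values were spread over replicate 1 (2 genes), 2 (3 genes) and 3 (3 genes). The coefficient of variation of SIX3 was 8.65% in UNT, 39.5% at FPM_IC25 and 5.3% at SRM_IC50. For SIX6 it was 31.6% in UNT, 54.7% at FPM_IC25 and 4.84% at SRM_IC50. PAX6 had 7.71%, 34.5% and 6.04% in the same groups. RAX and DCT were not as close at SRM_IC50, at 26.5% (18% in UNT) and 17.3% (7.19% in UNT). For these 5 genes and LHX2 (15.6% at SRM_IC50, 37.1% at FPM_IC25), the FPM_IC25 libraries were more spread than the SRM_IC50 libraries.

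**Figure D3:**
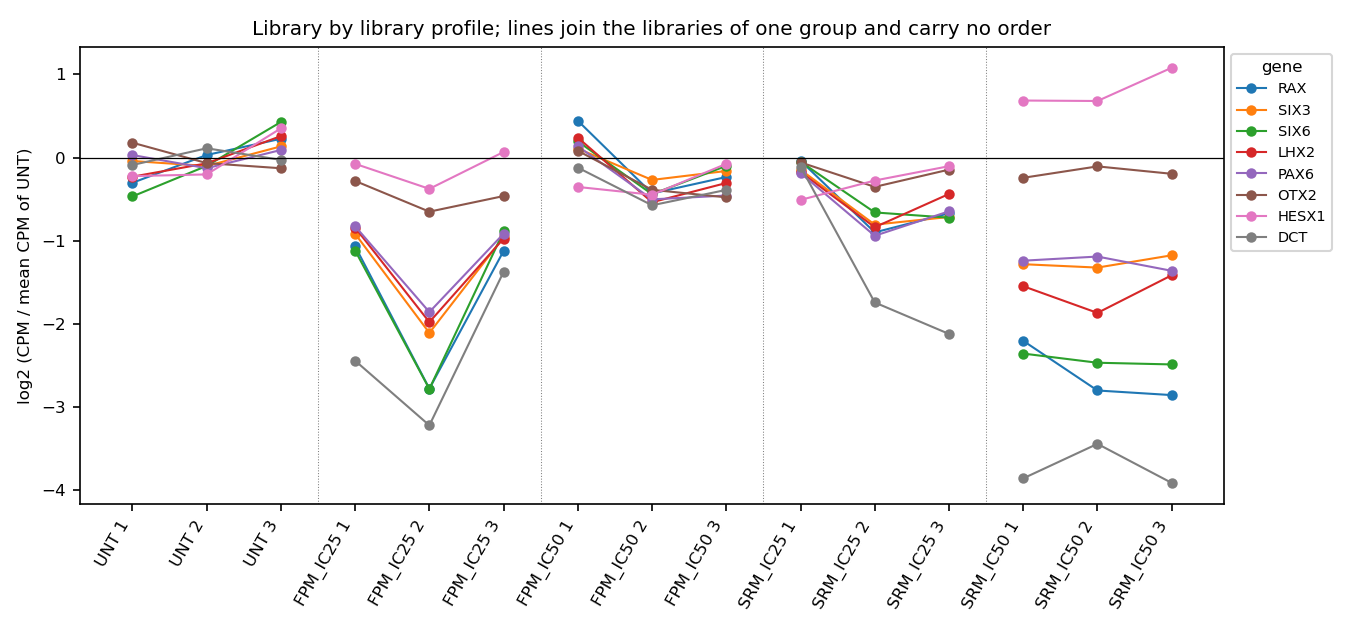
Log2 ratio of each library's CPM to the UNT mean for the 8 genes; lines join the libraries of 1 group to guide the eye and carry no order. RAX, SIX3, SIX6, LHX2, PAX6 and DCT dip together in FPM_IC25 replicate 2, and in the SRM_IC50 libraries they fan out from SIX3 and PAX6 down to DCT.

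Levels of different genes can be compared only per length, as FPKM (counts scaled by gene length and library total). The deposited lengths equal the exon bases of GENCODE release 29 for 6 members, but are shorter for PAX6 (14782 against 20812) and HESX1 (1248 against 1493), so the FPKM of these 2 depend on the gene model. In UNT, OTX2 was highest at 51.8 ± 7.48 FPKM (SD, n = 3). RAX (10.6 ± 1.64), SIX3 (10.1 ± 0.747), PAX6 (10.1 ± 0.812) and LHX2 (8.81 ± 1.34) followed within each other's spread. SIX6 (4.10 ± 1.20), HESX1 (1.26 ± 0.274) and DCT (0.504 ± 0.0313) came last. OTX2 was first and DCT last in all 15 libraries. At SRM_IC50 the order between them changed: SIX3 (4.27 ± 0.0971) and PAX6 (4.27 ± 0.397) led LHX2 (2.95 ± 0.398), HESX1 (2.26 ± 0.288), RAX (1.80 ± 0.522) and SIX6 (0.772 ± 0.0597). HESX1 was above SIX6 in all 3 SRM_IC50 libraries and above RAX in 2 of them.

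Across the groups, the mean FPKM of the 5 eye field factors ran from UNT and FPM_IC50, through SRM_IC25 and FPM_IC25, to SRM_IC50. Neighbours in that order overlapped in their libraries, except that SRM_IC25 lay wholly above FPM_IC25 for RAX, SIX3 and SIX6. DCT had the same order, and only its last 2 groups, FPM_IC25 and SRM_IC50, were separate from each other. For HESX1, SRM_IC50 came first without overlap with the rest. OTX2 ran from 51.8 FPKM in UNT to 39.9 ± 5.44 FPKM at FPM_IC25, and all its neighbours overlapped.

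At SRM_IC50 the ratios of RAX, SIX6 and LHX2 to SIX3 lay below those in UNT, while the ratio of PAX6 to SIX3 overlapped. The ratio of RAX to SIX3 in FPKM was 0.878, 1.15 and 1.12 in UNT and 0.556, 0.378 and 0.328 at SRM_IC50. SIX6 to SIX3 went from 0.304, 0.409 and 0.501 to 0.194, 0.185 and 0.165, and LHX2 to SIX3 from 0.768, 0.895 and 0.954 to 0.729, 0.600 and 0.742. These 3 ratios did not overlap between the groups (two-sided exact permutation test, p = 0.1, the smallest that 3 against 3 libraries allow, so no ratio could reach 0.05). PAX6 to SIX3 was 1.05, 0.981 and 0.969 in UNT and 1.03, 1.09 and 0.878 at SRM_IC50 (exact permutation p = 1). At FPM_IC25 the ratios overlapped UNT for RAX (0.948, 0.662 and 0.938) and SIX6 (0.355, 0.256 and 0.428), with exact permutation p = 0.3 and 0.5. SIX6 to RAX stayed between 0.327 and 0.501 in all 15 libraries.

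By a rule of likeness, the genes nearest to SIX3 over the 15 libraries were sought among protein-coding genes with a mean of at least 1 CPM. Likeness was the root mean square difference of centred log2 CPM, where SIX3 itself has a root mean square of 0.63. PAX6 (0.14) and LHX2 (0.20) came first, then CCL2 (0.24), a chemokine, and CDH20 (0.24), a cadherin. For OTX2, with a root mean square of only 0.21, the nearest were CTNNA2 (0.07), TPBG (0.10), NALF1 (0.10), GPC3 (0.12) and STOX1 (0.13). This is a description of 15 libraries, with no test.

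The genes beside the members were read next, because the strand setting of the counting is not given in the sources used here and overlapping genes could share reads. CPLX4, a complexin of retinal synapses, lies on the same strand beyond the RAX start, at chromosome 18, 59275156 to 59318649, without overlapping it. It stood at 5.82, 6.34 and 8.72 CPM in UNT and at 0.407, 0.204 and 0.967 CPM at SRM_IC50, a log2 change of -3.91 ± 0.479 (SE) with an adjusted p of 2.27e-05. At FPM_IC25 it changed by -1.89 ± 0.378 (adjusted p = 0.00177). CPLX4 thus fell in both groups in which RAX fell.

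LINC01833, a non-coding gene on the strand opposite SIX3, fell in the groups in which SIX3 fell. It was at 11.9, 11.4 and 12.4 CPM in UNT, and its log2 fold change was -1.39 (adjusted p = 0.000494) at SRM_IC50 and -1.24 (adjusted p = 0.000909) at FPM_IC25. SIX3-AS1, also opposite, was at most 1.16 CPM in any library and fell by 1.63 on the log2 scale at SRM_IC50 (adjusted p = 0.0399). Neither shares exon bases with SIX3. C14orf39, whose body overlaps SIX6, had a log2 difference of -0.62 at SRM_IC50 (adjusted p = 0.0847). ELP4 overlaps 25.18% of the 20812 PAX6 exon bases of GENCODE release 29 from the other strand, while the deposited tables give PAX6 a length of 14782 bases, so its share in the authors' gene model is not known. ELP4 stood between 13.5 and 18.6 CPM in every library, with a log2 difference of 0.06 at SRM_IC50 (adjusted p = 0.781). OTX2-AS1 (-0.35, adjusted p = 0.431) and APPL1 beside HESX1 (-0.26, adjusted p = 0.0834) did not pass at SRM_IC50.

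ENSG00000234921, an antisense gene that shares 105 bases, or 3.95%, of the LHX2 exon length, behaved otherwise. It had 0 counts in the UNT and SRM_IC50 libraries and at most 1 count in an SRM_IC25 library, but 0.28 to 2.92 CPM in the 6 FPM libraries. The part of such reads in the LHX2 value at FPM_IC25 was not tested. RAX and DCT have no annotated opposite gene within 5 kb, and they fell at FPM_IC25 by 1.48 and 1.93 on the log2 scale. Their values say nothing about the reads counted for LHX2.

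Related genes were read from fixed lists beside the members. Of 18 optic vesicle and retina genes, 13 were tested. At SRM_IC50, 5 were lower and 1 higher (median log2 fold change -1.14). LHX9, a relative of LHX2, fell by 2.53 on the log2 scale, and TBX5, which patterns the dorsal retina, by 2.41. EYA1 and EYA2, partners of SIX-family proteins, fell by 1.17 and 1.14. PAX2, the optic stalk factor, rose from 1.74 ± 0.147 to 3.31 ± 0.618 CPM (SD, n = 3), a log2 fold change of 0.93 (adjusted p = 0.0313). At FPM_IC25, 2 were lower, LHX9 (-1.14, adjusted p = 0.00605) and FZD5, a WNT receptor of the optic vesicle (-0.55, adjusted p = 0.0101), and none was higher. TBX5 was at or below 1.46 CPM in every library. RAX2, VSX1, VAX1, VAX2 and ATOH7 were too low to test, none above 0.967 CPM.

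Forebrain genes were mixed. Of 14 tested at SRM_IC50, 1 was lower and 3 were higher (median 0.12). DMBX1 (1.38), FEZF1 (1.17), of the early rostral forebrain, and FOXD1 (1.07) rose on the log2 scale. At FPM_IC25, 1 was lower and 1, DLX2, an interneuron factor, rose by 0.52 (adjusted p = 0.00414). FEZF1 and FOXD1 share exon bases with a gene on the other strand.

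Genes of neural progenitors in general did not fall with the eye field at SRM_IC50. Of 17 tested, 9 were higher and 1, LIX1 (-0.28), was lower (median 0.56). SOX21 rose by 1.53 and ZIC2 by 1.02 on the log2 scale. SOX2, shared by neural and pluripotent cells, rose from 127 ± 4.55 to 254 ± 24.1 CPM (SD, n = 3; adjusted p = 6.25e-06). At FPM_IC25 the same list had 5 lower and none higher (median -0.25), with FABP7 at -0.77, SOX2 at -0.65, SOX21 at -0.57, ZIC5 at -0.47 and ZIC2 at -0.38. The summed level of 5 neural progenitor markers was 419 to 492 CPM in UNT, 637 to 742 CPM at SRM_IC50 and 428 to 471 CPM at FPM_IC25.

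Midbrain, hindbrain and posterior genes were split at SRM_IC50, with 5 of 14 lower and 5 higher (median 0.36). GBX2, of the anterior hindbrain and of early ectoderm, rose by 2.18 and WNT1, of the midbrain boundary, by 1.20. CDX2 and CDX1, factors of the posterior body and, for CDX2, of trophoblast, fell by 2.08 and 1.66. EGR2 (0.97), PAX3 (0.68) and HOXB1 (0.60) were the other genes that rose, and HOXB2 (-1.16) and IRX3 (-0.88) also fell. At FPM_IC25 edgeR called none of the 14, with 1 at an unadjusted p under 0.05. The list of anterior signal antagonists held mostly secreted or membrane antagonists of WNT, BMP and Nodal signals, and also the transcription factor HHEX. Of its 14 tested genes, 5 were higher and 2 lower at SRM_IC50 (median 0.23). SHISA3 (2.23), SFRP5 (2.09), GREM1 (0.95), FRZB (0.48) and FST (0.40) were the former, and SFRP2 (-0.77) and SFRP1 (-0.51) were the latter. At FPM_IC25, 4 were lower and none higher: SFRP2 (-0.78), SHISA2 (-0.74), GREM1 (-0.43) and FST (-0.34).

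**Figure D4:**
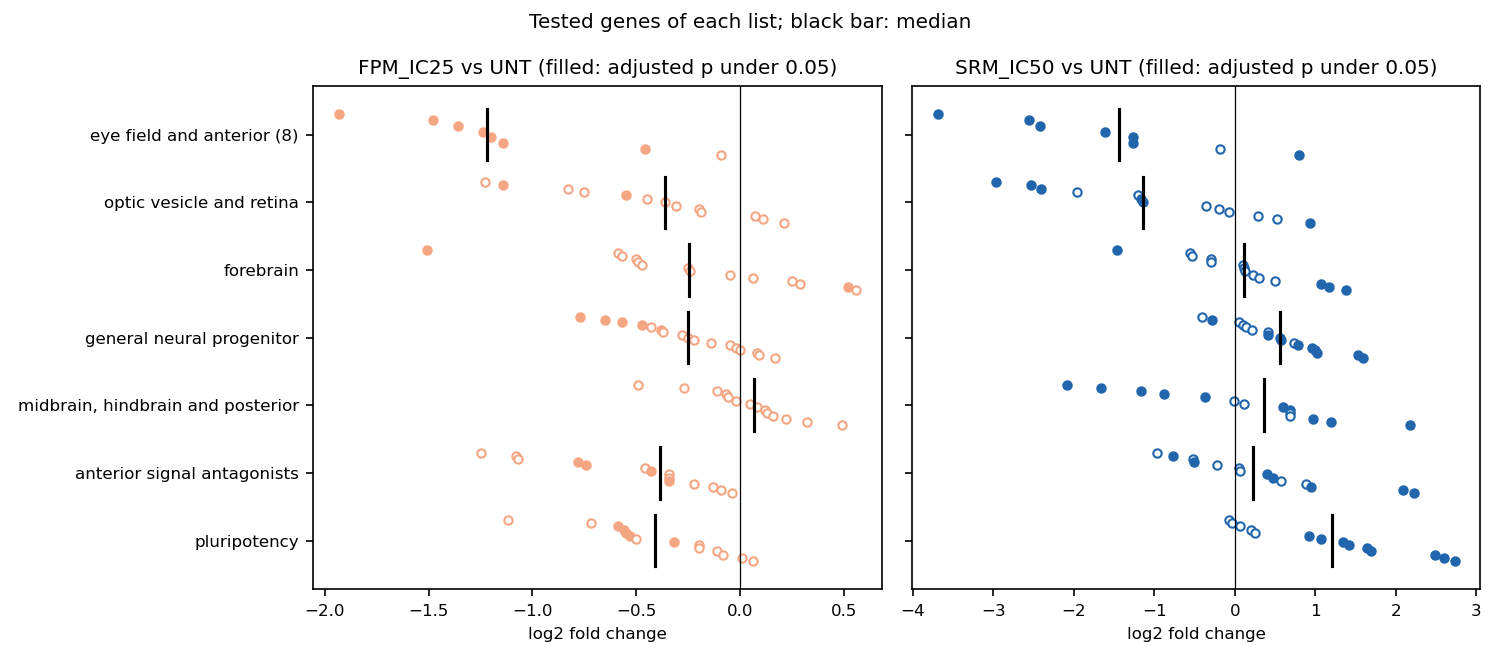
Log2 fold change against UNT of the tested genes in 7 lists at FPM_IC25 (left) and SRM_IC50 (right), on axes of different range; each point is a gene, filled at an adjusted p under 0.05, and black bars are medians. The eye field genes and the optic vesicle list have medians below 0 in both panels, while the neural progenitor and pluripotency lists have medians of 0.56 and 1.21 at SRM_IC50 and -0.25 and -0.41 at FPM_IC25.

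DCT belongs with pigment genes, and 9 of the 14 listed passed the filter on low counts and were tested. TYR and MLANA, defining genes of melanocytes, had at most 3 and 5 counts in a library (0.149 and 0.232 CPM). Of 9 pigment genes tested at SRM_IC50, TYRP1 (-1.73, adjusted p = 0.00182) and MITF, the master regulator of pigment cells (-0.59, adjusted p = 0.00724), fell and GPR143 rose (0.60). At FPM_IC25, TYRP1 (-1.21) and MITF (-0.66) fell, and BEST1 and SLC24A5 rose. BEST1 went from 1.74 ± 0.602 to 367 ± 70.0 CPM (SD, n = 3), and SLC24A5 from 0.753 ± 0.199 to 9.02 ± 2.54 CPM. Both share exon bases with a gene on the opposite strand, in libraries whose antisense share was raised, and the part of that in these rises was not tested. PMEL, a melanosome protein, did not pass in either comparison (0.14 and -0.33). The 6 melanocyte markers were MLANA, PMEL, TYR, TYRP1, SOX10 and MITF. They summed to 224 to 253 CPM in UNT, 273 to 279 CPM at SRM_IC50 and 200 to 218 CPM at FPM_IC25. Of the 4 tested, 2 were lower and 1 was higher at SRM_IC50, and 2 were lower and 0 higher at FPM_IC25.

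HESX1 belongs with the pituitary placode. The pituitary factors POU1F1 and LHX3 had at most 3 counts in any library. Of 8 placode and pituitary genes tested, LHX4, a pituitary LIM factor, was higher at SRM_IC50 (2.28) and at FPM_IC25 (2.61), and FOXE3, a lens factor, was lower at SRM_IC50 (-1.19). LHX4 shares exon bases with an opposite gene. Among the 8 tested paralogs of the members at SRM_IC50, LHX9 and TYRP1 were lower and SIX2 was higher (0.92, adjusted p = 0.0372), while CRX (-1.20) and OTX1 (-0.55), the relatives of OTX2, did not pass (adjusted p = 0.232 and 0.0604).

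Pluripotency genes and amnion and trophoblast markers moved strongly at SRM_IC50 and less at FPM_IC25. In the pluripotency list 9 of 14 tested genes were higher at SRM_IC50 (median 1.21), with PRDM14 at 2.73, UTF1 at 2.60, TDGF1 at 2.49 and NODAL at 1.69. At FPM_IC25, 5 were lower (median -0.41), namely TDGF1 (-0.59), LIN28A (-0.56), POU5F1 (-0.55), L1TD1 (-0.53) and SALL4 (-0.32). The 7 amnion and trophoblast markers summed to 1217 to 1451 CPM in UNT, 307 to 331 CPM at SRM_IC50, where all 7 were lower, and 1398 to 1519 CPM at FPM_IC25, where none was called. The 6 neuron markers summed to 64.6 to 75.9 CPM in UNT and 73.6 to 86.8 CPM at SRM_IC50. These ranges overlap, and 1 marker was lower and 1 higher. The 6 neural crest markers summed to 339 to 388 CPM in UNT and 443 to 461 CPM at SRM_IC50, with 3 higher and 1 lower. These are RNA levels, and cell makeup was not measured. The part of these marker changes in the fall of the eye field genes was not tested. Fitted without the FPM libraries, SRM_IC50 against UNT gave the same log2 fold change to 2 decimals for each of the 8 genes, and again 6 lower and 1 higher.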

How the data were processed

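Gene-level expression was read from the authors' deposited table of read counts per gene for 15 libraries and from their deposited table of FPKM values, which equal the count divided by gene length and library total. The tools named in the submitters' processing notes are FastQC 0.11.7, HISAT2 2.2.1, SAMtools 1.10, featureCounts, Subread and DESeq2, with the build GRCh38. Per the labels' protocols, polyadenylated RNA entered a directional library kit. Which annotation release and strand setting were used, and how multi-mapping reads were handled, is not given in the sources, so genes that overlap another gene or have close paralogs are uncertain.

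The main test was edgeR's quasi-likelihood F test (edgeR 4.0.16, R 4.3.3) on the counts, after filterByExpr and TMM, with robust fits of 5 group means to all 15 libraries, Benjamini-Hochberg adjustment over 19012 genes and a threshold of 0.05. Each exposure was set against UNT, doses within a particle and particles within a level against each other, with an interaction and a joint test. The SE beside an edgeR log2 fold change is its absolute value divided by the square root of the F statistic, not a separate estimate. Total counts of 9.34 to 58.2 M set the precision. No replicate pair was close to sampling noise (lowest chi-square per gene 5.28), so every library was counted. Scripts were tested on simulated data.

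CPM are TMM-scaled; FPKM were used only between genes, and in limma 3.58.1 as an alternative, with a pseudocount of 1 or 0.1 before log2 and a filter of 0.5 FPKM in 3 libraries or none. Other alternatives were DESeq2 1.42.0, its size factors, no count filter, a replicate block, only the groups compared, a GC correction in 20 bins, no FPM libraries, and leaving out each library.

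Coordinates and overlaps are from GENCODE release 29 (GRCh38), on which 57055 of 60675 genes were placed. Sequences are from RefSeq (GRCh38.p14) and matched 7 of the 8 members, all but SIX3. The members are always named. From each of 9 lists, up to 4 called genes per comparison with the largest change and a mean of at least 1 CPM are named, plus any gene that a count of 5 or fewer refers to; further calls are counted. Some genes that this rule names are counted but not reported here. The 8 genes and all lists were chosen with earlier results of these data known, and are not independent evidence of a direction.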

Additional observations from a re-analysis of the deposited data

Results flagged for a closer look

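The step from IC25 to IC50 differed between the particles for 7 of the 8 genes, by a test that 14.6% of all genes passed (edgeR interaction, FPM step minus SRM step, on the log2 scale). The values were 3.49 for RAX, 1.85 for SIX3, 3.21 for SIX6, 2.15 for LHX2, 1.59 for PAX6, 4.08 for DCT and -1.29 for HESX1. For the first 6 the SRM step was downward at an adjusted p under 0.05 in edgeR, as for 13.2% of all genes. Their FPM_IC50 libraries all lay above those of FPM_IC25, as for 4.56% of all genes. The FPM step alone passed edgeR's test for none of them.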

How the results depend on the processing

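Counts of called members stayed within 1.5 times the edgeR count for SRM_IC50 against UNT (7; 6 to 7 over the alternatives), FPM_IC25 against UNT (7; 5 to 7), FPM_IC50 against SRM_IC50 (7; 6 to 7), the interaction (7; 6 to 7) and the joint test (7; 6 to 8). DCT was too low for the FPKM filter and drops out of those 2 limma fits.

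The other counts moved. SRM_IC50 against SRM_IC25 fell from 7 to 4 in each of the 3 limma fits. All genes called there went from 5115 of 19012 to 4160 and 4294 of 18868, and 3501 of 40668 with no filter. From 0, SRM_IC25 against UNT went to 5 with no filter and 3 with the replicate block. All genes called there went from 831 of 19012 to 791 of 40668 and to 2718 of 19012. FPM_IC50 against FPM_IC25 went from 0 to 1 with DESeq2, 6 with no filter and 2 with the block, and FPM_IC25 against SRM_IC25 from 0 to 1, 5 and 5. For all genes the former gave 2 calls in the main fit, 37 with DESeq2, 116 with no filter and 34 with the block. For the latter these were 1995, 2133, 2917 and 2963. The fits with no filter tested 40668 genes and the others 19012. Leaving out 1 library gave 0 to 1 for SRM_IC25 and for FPM_IC50 against UNT (1 without replicate 1 of either) and 0 to 2 for FPM_IC25 against SRM_IC25. Where a member was called, all genes called were 319 of 19617, 2285 of 19481 and 2001 of 19450, in that order. With no filter the fit set each member's spread to the trend (infinite prior degrees of freedom, 5.64 with the filter), which for RAX lowered the quasi-likelihood dispersion from 5.8 to 0.791. For the other settings the cause was not tested.

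Directions turned only for differences that passed no test. RAX at FPM_IC50 against UNT (-0.03) was 0.03 in the 3 limma fits and -0.33 to 0.14 with a library left out, and SIX6 (-0.11) was 0.01 to 0.02 and -0.30 to 0.16. HESX1 at FPM_IC25 against UNT (-0.09) ran from -0.24 to 0.14 with a library left out, and OTX2 at FPM_IC50 against SRM_IC50 (-0.06) from -0.25 to 0.04. OTX2 between the SRM doses (0.0008) was -0.00073 with DESeq2, -0.00045 with its size factors, -0.01 with no filter, -0.08 with the GC correction and -0.08 to 0.06 with a library left out.

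The replicate numbers were not taken as pairs, since the labels do not tie them to a shared culture or day and not every correlation passed 0.1. Over 30 same-numbered pairs the correlation of deviations from group means had a median of 0.16 (lowest -0.14, highest 0.438), with 16 above 0.1, against a median of -0.0783 for different numbers. In 11 of 15 libraries the best-correlated library of another group had the same number, a hint from the data, not the design, that numbers may mark a shared source. The replicate block changed no other count by over 1.5 times. DCT at SRM_IC50, with 18 counts, and HESX1, with 54 to 167 counts a group, are the values that depth limits most.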
